A study of Mus musculus with 12 samples.

Results

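The 9 genes described here encode enzymes that make serine and carry its one-carbon units through the folate cycle: Phgdh, Psat1, Psph, Shmt1, Shmt2, Mthfd1, Mthfd2, Mthfd1l and Tyms. They were chosen by symbol, and all 9 were found among the 32699 genes of the deposited files. RNA was sequenced from G1E-ER4 cells, a mouse erythroid line whose GATA-1, a transcription factor, is joined to the estrogen receptor; β-estradiol (E2) switches it on and red cell maturation follows. The 4 groups held 3 libraries each: cells given 10 µM Thiamet-G (TMG) and 1 µM E2 (TMG_E2), cells given 1 µM E2, cells given 10 µM TMG, and untreated cells (Ctrl), all of the same line, with treatments of 30 h. TMG inhibits OGA, the enzyme that takes O-GlcNAc off proteins. The line descends from embryonic stem cells without a working Gata1 gene, and no group of cells without the fusion was given E2, so effects of E2 through GATA-1 and by other routes cannot be told apart.

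Serine is built from a glycolytic intermediate in 3 steps, by PHGDH, PSAT1 and PSPH. The serine hydroxymethyltransferases pass a carbon of serine to tetrahydrofolate, SHMT2 in mitochondria and SHMT1 in the cytosol. In mitochondria MTHFD2 and MTHFD1L turn that carbon into formate, which leaves for the cytosol, where MTHFD1 puts it back on folate for purine, thymidylate and methionine synthesis. TYMS uses the folate-bound carbon to make thymidylate for DNA. Dividing erythroid progenitors are known to need this pathway, and folate shortage causes a megaloblastic anemia.

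The libraries held 17589400 to 23178700 counts. Erythroid markers were present in every library, at low levels for some of them without E2. There Slc4a1 reached at most 1.79 CPM (counts per 1000000 counts of the library) and Alas2 at most 5.12. The labels name the cells embryonic stem cells, yet the 6 stem cell markers summed to at most 0.272 CPM in any library. Pou5f1, Sox2, Zfp42 and Dppa5a were at 0. Of 5 mast cell markers 2 (Cpa3 and Ms4a2) passed the expression filter, Mcpt8 and Tpsb2 were at 0 and Fcer1a reached at most 0.104 CPM; the list summed to 0.0431 to 0.169 CPM in TMG_E2, 0.0545 to 0.135 in E2, 12.99 to 23.0 in TMG and 22.1 to 42.3 in Ctrl libraries. None of the 6 megakaryocyte, 6 granulocyte and macrophage or 5 lymphoid markers passed the filter. Separate cultures are not stated for the 3 libraries of a group, and the spread behind each p-value may then be technical. In bulk RNA a change in the share of cells of a kind and a change of RNA per cell cannot be told apart.

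The promoter windows of 4 genes are shown because they set the enzymes whose transcripts fell most with E2 (Mthfd1, Psph and Shmt1) beside the gene that did not fall (Mthfd2). Each window runs from 250 bases before to 50 bases after the RefSeq start site on GRCm38.p6, which for Mthfd1, Psph and Mthfd2 lies inside the outer bounds of the gene, and capitals mark matches to the motifs searched on both strands.
Mthfd1 (chr12:76254982-76255281, plus strand): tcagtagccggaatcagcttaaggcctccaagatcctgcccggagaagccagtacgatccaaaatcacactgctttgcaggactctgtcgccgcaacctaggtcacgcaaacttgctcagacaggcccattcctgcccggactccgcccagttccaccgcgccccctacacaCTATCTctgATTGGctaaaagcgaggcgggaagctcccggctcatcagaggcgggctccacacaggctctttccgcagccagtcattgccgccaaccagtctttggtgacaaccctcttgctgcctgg
Psph (chr5:129787204-129787503, minus strand): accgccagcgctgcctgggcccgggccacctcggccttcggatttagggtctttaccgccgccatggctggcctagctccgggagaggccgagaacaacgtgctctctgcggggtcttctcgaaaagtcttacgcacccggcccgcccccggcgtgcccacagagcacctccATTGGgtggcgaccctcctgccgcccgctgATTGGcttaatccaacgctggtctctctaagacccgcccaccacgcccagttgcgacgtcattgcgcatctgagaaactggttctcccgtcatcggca
Shmt1 (chr11:60811216-60811515, minus strand): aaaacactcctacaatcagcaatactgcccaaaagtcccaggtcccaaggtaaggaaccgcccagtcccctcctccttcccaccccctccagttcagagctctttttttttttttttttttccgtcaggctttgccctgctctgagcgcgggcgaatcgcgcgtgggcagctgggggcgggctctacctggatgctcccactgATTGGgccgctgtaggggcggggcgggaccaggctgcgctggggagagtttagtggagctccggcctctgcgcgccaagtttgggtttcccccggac
Mthfd2 (chr6:83317555-83317854, minus strand): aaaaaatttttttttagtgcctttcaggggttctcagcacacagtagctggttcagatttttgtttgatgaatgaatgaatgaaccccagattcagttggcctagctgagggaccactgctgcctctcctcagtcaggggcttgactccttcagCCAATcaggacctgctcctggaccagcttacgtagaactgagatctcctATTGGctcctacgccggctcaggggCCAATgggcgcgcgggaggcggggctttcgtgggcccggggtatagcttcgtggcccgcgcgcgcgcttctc
The motifs were the E-box CACGTG, the amino acid response element TGATGNAA, GATA sites (AGATAA and its variants AGATAG for the last base, TGATAA for the first base and TGATAG for both), the E2F site TTTCCCGC and the CCAAT box (CCAAT), none of which shares letters with another in these matches. A CCAAT box lay in the windows of 6 of the 9 genes (Phgdh, Psat1, Psph, Shmt1, Mthfd1 and Mthfd2), against 37.4% of 32851 windows of the same length. A GATA site lay in 1 of the 9, at 78 bases before the start site of Mthfd1, against 29.8% of windows, and a CACGTG in 1, at 61 bases before that of Tyms, against 7.15%. The amino acid response element and the E2F site had 0 matches in the 9 windows and occurred in 3.97% and 1.07% of all windows. Psat1 has 2 windows in the table, of which 1 was used. Windows with a CCAAT box thus belonged to Phgdh, to 4 genes that fell with E2 and to Mthfd2, which did not fall.

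Phgdh, which encodes the enzyme of the first step of serine synthesis (chromosome 3, 98313171 to 98339969), was listed at 0 counts in all 12 libraries. A count of 0 in libraries of this depth allows up to 0.129 to 0.171 CPM, and covers counting error only. Psat1, the next enzyme, stood at 411.72 to 727.64 TPM (transcripts per 1000000 transcripts, which scales for length) in the same libraries. On chromosome 3 the neighbouring genes Reg4 and Adam30 were also at 0, Notch2 had 1 count and Zfp697 had 27.42 expected counts over the 12 libraries. The longest coding Phgdh transcript of GENCODE M21 has 17 near copies under other gene names (at least 90% identical over at least 500 bases), of which 16 are annotated as pseudogenes. Of these copies 2 (Gm6756 and Gm8096) are among the deposited genes, and both were at 0 in every library. Whether reads of Phgdh were lost in alignment was not tested, and Phgdh entered no comparison. The other 8 genes passed the expression filter, with a lowest library value of 22.6 CPM (Psph), so none of them passed through 1 group alone.

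Levels of different genes are compared in TPM. Shmt2 and Psat1 were the highest pair in every group. In TMG_E2 cells Shmt2 stood at 434 ± 33.7 TPM (SD, n = 3) and Psat1 at 419 ± 12.6, and their libraries overlapped. In E2 cells they stood at 475 ± 21.8 and 447 ± 2.92 TPM without overlap, in TMG cells at 606 ± 22.02 and 639.55 ± 12.3 with overlap, and in Ctrl cells at 653 ± 7.64 and 712 ± 14.9 without overlap. Below them the order differed between cells with and without E2. Mthfd2 stood above Mthfd1 at 164 ± 1.10 against 99.4 ± 3.79 TPM in TMG_E2 cells and at 177 ± 3.77 against 118 ± 4.73 in E2 cells. It stood below Mthfd1 at 164 ± 3.39 against 379.54 ± 12.9 TPM in TMG cells and at 177 ± 7.10 against 417 ± 11.4 in Ctrl cells.

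The lower part of the order also moved. Tyms and Mthfd1l overlapped at 57.0 ± 0.950 and 54.7 ± 4.20 TPM in TMG_E2 cells and at 59.8 ± 2.33 and 60.8 ± 1.18 in E2 cells. In TMG cells Mthfd1l was at 127 ± 4.56 and Tyms at 95.7 ± 5.16 TPM, and in Ctrl cells they were at 137 ± 2.47 and 92.4 ± 5.04 TPM, where Tyms overlapped with Shmt1. Shmt1 stood at 25.6 ± 0.581 TPM in TMG_E2, 32.3 ± 1.87 in E2, 83.8 ± 3.15 in TMG and 95.4 ± 3.28 in Ctrl cells. Psph stood at 24.2 ± 1.36, 24.5 ± 0.883, 80.5 ± 1.14 and 82.2 ± 3.69 TPM in the same 4 groups. Together the 9 genes made up 1262 to 1301 TPM in TMG_E2, 1374 to 1422 in E2, 2171 to 2188 in TMG and 2354 to 2379 in Ctrl libraries. TPM is a share of each library. On the log2(TPM + 1) scale the median tested gene stood at -0.19 in E2 against Ctrl and -0.18 in TMG_E2 against TMG libraries. The TPM differences with E2 given above include this shift.

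**Figure D1:**
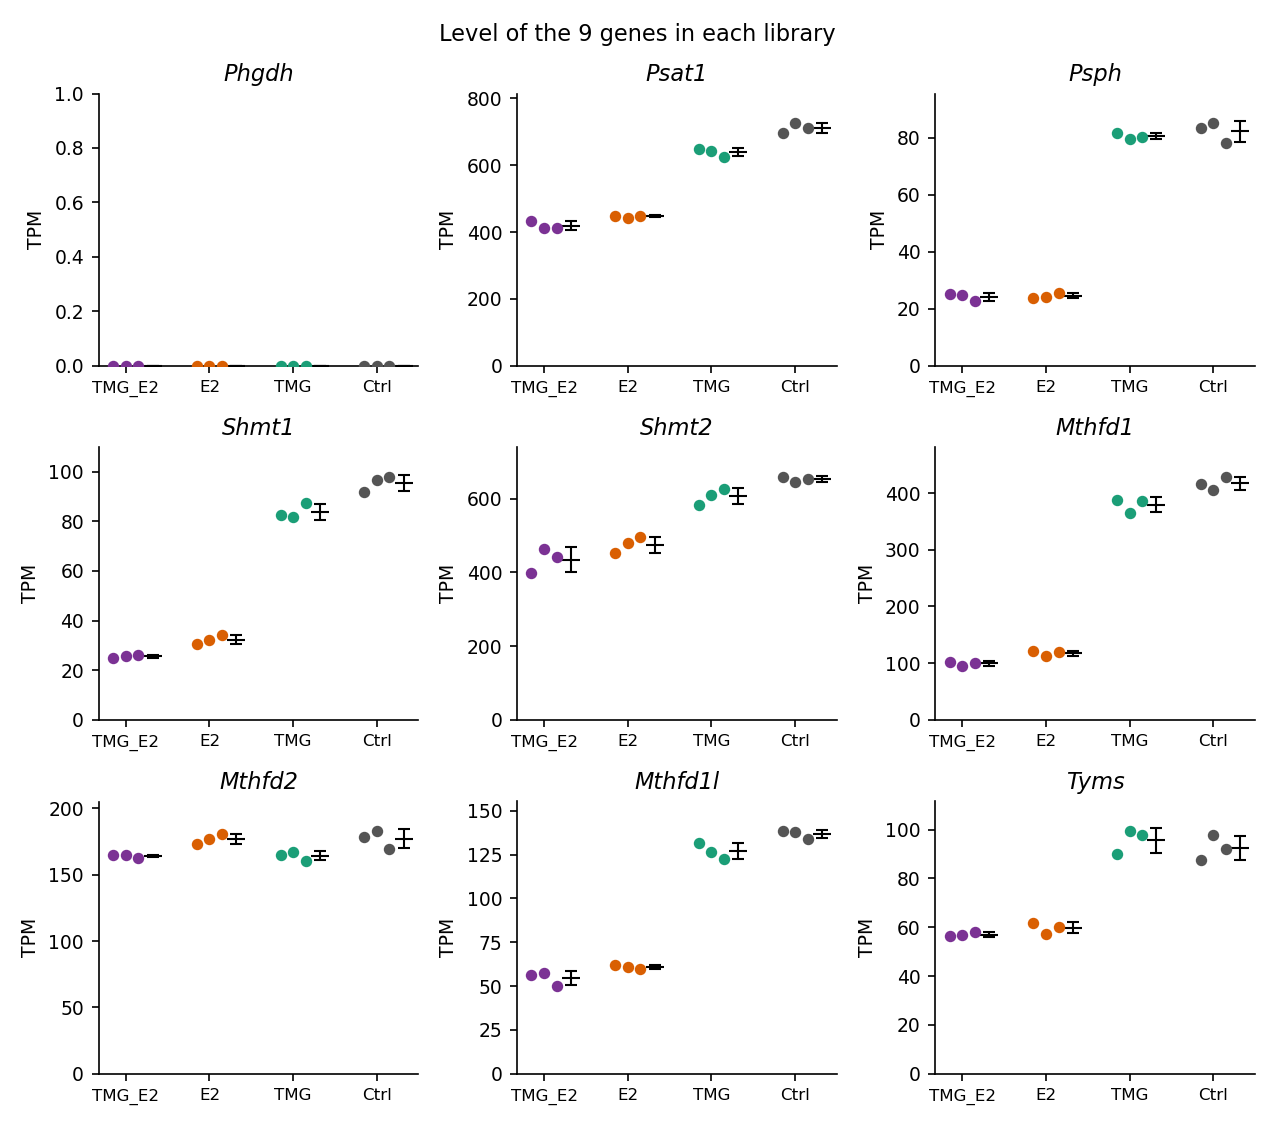
TPM (linear axis from 0) of each of the 9 genes in the 12 libraries, by group; points are libraries and the black marks are the mean ± SD of 3. Phgdh lies at 0 throughout, 7 genes are lower in the libraries with E2, and Mthfd2 stands between 160.53 and 183.13 TPM in all of them.

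The comparison of E2 with Ctrl addressed what E2 did to these transcripts without TMG. Of the 8 tested genes 7 fell and 1, Mthfd2, rose. In the same comparison 82.7% of 8273 tested genes were called, 41.2% lower and 41.5% higher, at an edgeR adjusted p under 0.05, and 85.9% had E2 libraries that did not overlap with the Ctrl libraries. The median log2 fold change was -0.73 over the 8 genes and -0.00076 over all genes. The falls were uneven, from log2 -1.64 for cytosolic Mthfd1 to -0.26 for mitochondrial Shmt2. The mast cell markers given above and the erythroid markers, which summed to 39650 to 42612 CPM in E2 against 1592 to 1628 in Ctrl libraries, moved with the same contrast, and their part in these differences was not tested.

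Among the serine synthesis enzymes, Psat1, the aminotransferase of the second step (chromosome 19, 15905123 to 15925059), had 642, 644 and 645 CPM in E2 libraries, against 876, 926 and 897 CPM in Ctrl libraries. The E2 libraries lay close together and all below the Ctrl libraries (log2 -0.48 ± 0.034 SE, edgeR adjusted p = 3.83e-10). Psph, the phosphatase that releases serine (chromosome 5, 129765558 to 129787443), had 23.6, 24.1 and 25.4 CPM in E2 libraries, against 71.7, 74.4 and 67.6 CPM in Ctrl libraries. That was a fall of 2.92-fold with no overlap of the groups (log2 -1.55 ± 0.047, edgeR adjusted p = 4.94e-15). Psph shares 452 exon bases with Cct6a on the opposite strand, and since no strand setting of the authors' counting is given, reads of the pair cannot be told apart there. The ratio of Psat1 to Psph in TPM was 18.2 ± 0.646 in E2 and 8.67 ± 0.376 in Ctrl cells (n = 3 each, exact two-sided permutation p = 0.1, the smallest that 3 against 3 libraries allow).

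The 2 hydroxymethyltransferase genes fell by different amounts. Shmt1, the cytosolic enzyme (chromosome 11, 60788897 to 60811265), had 41.3, 44.3 and 46.6 CPM in E2 libraries, against 107.8, 116 and 116 CPM in Ctrl libraries, a fall of 2.57-fold (log2 -1.36 ± 0.054, edgeR adjusted p = 1.67e-13). Shmt2, the mitochondrial enzyme (chromosome 10, 127517123 to 127522444), had 696, 748 and 769 CPM in E2 libraries, against 889, 881 and 887 CPM in Ctrl libraries. All 3 E2 libraries were below the Ctrl libraries, by 1.20-fold on average (log2 -0.26 ± 0.059, edgeR adjusted p = 0.000531). The TPM of Shmt2 was 14.7 ± 0.216 times that of Shmt1 in E2 cells and 6.85 ± 0.296 times in Ctrl cells. Shmt1 shares 184 exon bases with Smcr8 and Shmt2 shares 32 with Ndufa4l2, each on the opposite strand, and the same limit holds there.

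The folate interconversion enzymes showed the widest spread. Mthfd1, the trifunctional cytosolic enzyme (chromosome 12, 76254406 to 76319820), had 276, 259.5 and 274 CPM in E2 libraries, against 831, 823 and 861 CPM in Ctrl libraries. This was the largest fall of the 8 genes, 3.11-fold (log2 -1.64 ± 0.042, edgeR adjusted p = 4.78e-16). It shares 37 exon bases with Gm47525 on the opposite strand, a gene not analysed here. Mthfd1l, the mitochondrial formate-producing enzyme (chromosome 10, 3972892 to 4167081), had 157, 157 and 153 CPM in E2 libraries, against 309, 311 and 300.3 CPM in Ctrl libraries (log2 -0.98 ± 0.037, edgeR adjusted p = 8.48e-14). Mthfd2, the mitochondrial dehydrogenase and cyclohydrolase (chromosome 6, 83305704 to 83326011), had 237, 246 and 249.5 CPM in E2 libraries, against 214, 223 and 204 CPM in Ctrl libraries. It rose by log2 0.19 ± 0.039 (edgeR adjusted p = 0.000228) on counts scaled by TMM, the trimmed mean of M-values. That rise was 0.095 (adjusted p = 0.0290) with library size as the scaling, and was absent in TPM (-0.00063 on the log2(TPM + 1) scale with limma, adjusted p = 0.988), where the median gene stood at -0.19. On every scale tried, Mthfd2 stood above the median gene in this contrast, while Mthfd1 stood below it.

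Tyms, thymidylate synthase (chromosome 5, 30038546 to 30073645), had 89.8, 81.5 and 89.7 CPM in E2 libraries, against 108, 113 and 109 CPM in Ctrl libraries. It fell by log2 0.34 ± 0.043 (edgeR adjusted p = 1.38e-06), and its groups did not overlap. A pseudogene copy, Tyms-ps, drew 43.46 expected counts over the 12 libraries.

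The same comparison in the presence of TMG (TMG_E2 with TMG) used other libraries throughout. Again 7 genes fell and Mthfd2 rose, where 82.7% of all genes were called, 41.8% lower and 40.9% higher, and the median was log2 -0.73 over the 8 genes and -0.011 over all genes. Mthfd1 had 234, 222 and 246 CPM in TMG_E2 libraries, against 793, 761 and 806 CPM in TMG libraries (log2 -1.75 ± 0.042, edgeR adjusted p = 2.36e-16). Psph was at 24.7, 24.97 and 24.1 CPM in TMG_E2 libraries, against 72.4, 71.7 and 72.4 CPM in TMG libraries (log2 -1.55 ± 0.048). Shmt1 followed at log2 -1.53 ± 0.056, Mthfd1l at -1.03 ± 0.038, Tyms and Psat1 at -0.43 ± 0.043 and -0.43 ± 0.034, and Shmt2 at -0.30 ± 0.059. The groups of each of the 8 genes were separate, as were those of 81.8% of all genes. Mthfd2 had 226, 230.5 and 241 CPM in TMG_E2 libraries, against 203, 209.8 and 202 CPM in TMG libraries (log2 0.18 ± 0.040, edgeR adjusted p = 0.000420). This call ended with library size as the scaling (log2 0.084, adjusted p = 0.0520) and the difference was -0.0010 on the log2(TPM + 1) scale.

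**Figure D2:**
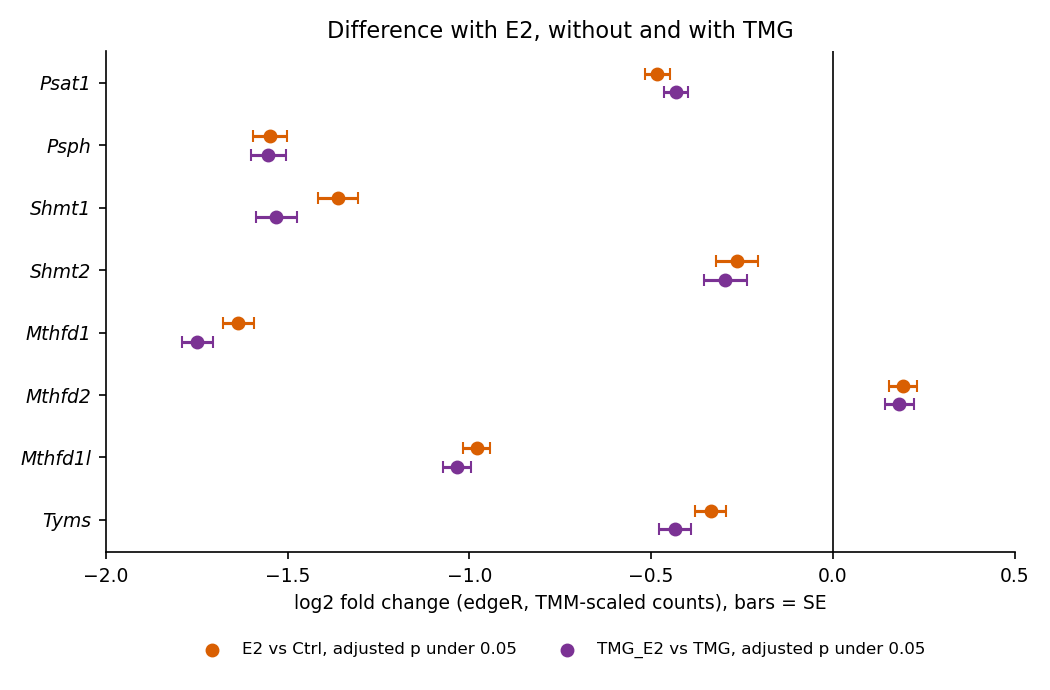
Log2 fold change (horizontal axis) with SE for the 8 tested genes, in E2 against Ctrl libraries and in TMG_E2 against TMG libraries. Filled points have an adjusted p under 0.05; Mthfd1, Psph and Shmt1 lie farthest below 0 and Mthfd2 lies above it in both contrasts.

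The ratio of a mitochondrial to a cytosolic transcript, taken for 3 pairs of genes, differed between cells with and without E2. The TPM of Mthfd2 was 1.65 ± 0.0658 times that of Mthfd1 in TMG_E2, 1.51 ± 0.0768 times in E2, 0.433 ± 0.0226 times in TMG and 0.425 ± 0.0284 times in Ctrl cells (SD, n = 3 each). For Mthfd1l over Mthfd1 the ratio was 0.551 ± 0.0532 in TMG_E2, 0.518 ± 0.0233 in E2, 0.335 ± 0.0152 in TMG and 0.328 ± 0.0139 in Ctrl cells. For Shmt2 over Shmt1 it was 16.95 ± 1.08 in TMG_E2, 14.7 ± 0.216 in E2, 7.23 ± 0.203 in TMG and 6.85 ± 0.296 in Ctrl cells. Each of these ratios was higher in every library with E2 than in every library without it. Of single genes 85.9% also had separate groups in E2 vs Ctrl and 81.8% in TMG_E2 vs TMG. The share over ratios of other genes was not computed. Mthfd1, the gene with the largest fall, is the denominator of both Mthfd ratios. The exact two-sided permutation p was 0.1 for each E2 contrast, the smallest possible, and 0.145 after adjustment over the 16 ratio tests, so no ratio could pass 0.05.

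**Figure D3:**
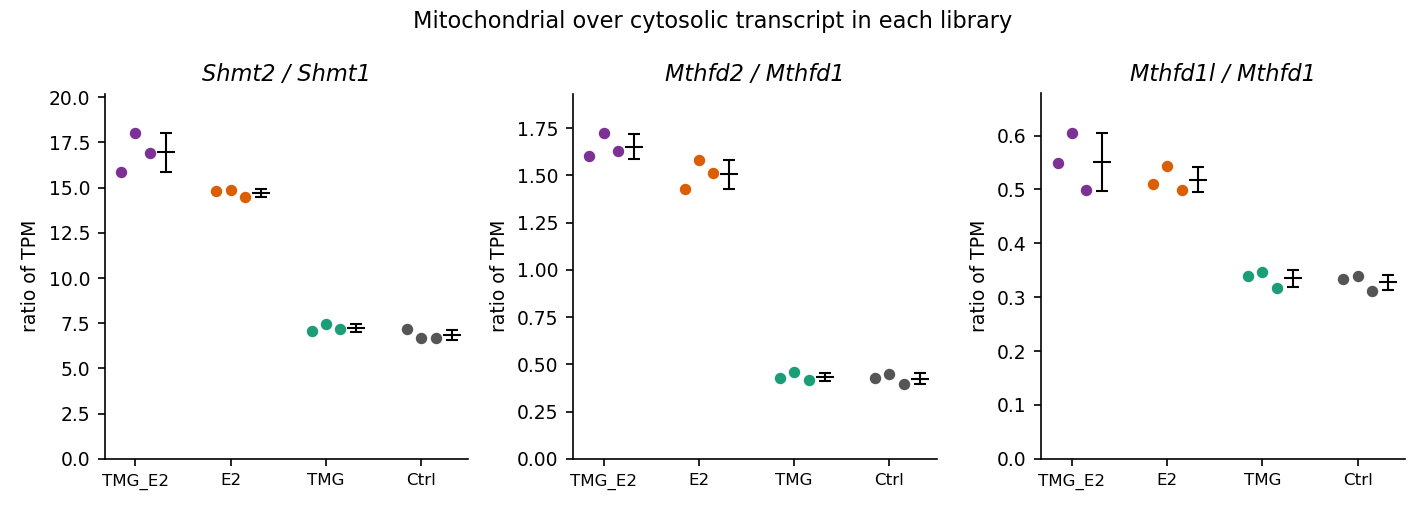
Ratio of TPM of a mitochondrial to a cytosolic enzyme transcript (linear axis from 0) in each library, with the mean ± SD of 3 per group. Libraries with E2 lie above those without it in each panel, from 14.5 to 18.0 against 6.68 to 7.46 for Shmt2 over Shmt1.

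The comparison of TMG with Ctrl asked for the effect of TMG in cells without E2. None of the 8 genes passed the edgeR test, where 5.15% of all genes did, 2.14% lower and 3.01% higher; 4 of the 8 had an unadjusted p under 0.05, as 18.9% of all genes did, DESeq2 called 1 and limma on log2(TPM + 1) called 1. The median over the 8 genes was log2 -0.062, against 0.0028 over all genes. Shmt1 had 99.7, 100.6 and 107.6 CPM in TMG libraries, against 107.8, 116 and 116 CPM in Ctrl libraries. Its groups did not overlap, as in 28.7% of all genes, and its highest TMG and lowest Ctrl library nearly met (log2 -0.14 ± 0.051, edgeR adjusted p = 0.122). Psat1 had 837, 845 and 823 CPM in TMG libraries, against 876, 926 and 897 CPM in Ctrl libraries (log2 -0.11 ± 0.033, edgeR adjusted p = 0.0748), and is the gene that DESeq2 called (adjusted p = 0.0200). The other estimates were -0.092 ± 0.040 for Mthfd1, -0.062 ± 0.040 for Mthfd2, -0.061 ± 0.036 for Mthfd1l, -0.060 ± 0.059 for Shmt2, 0.018 ± 0.042 for Psph and 0.099 ± 0.043 for Tyms, with edgeR adjusted p from 0.208 to 0.869.

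With E2 present, TMG_E2 was compared with E2, and 2 of the 8 genes fell: Shmt1 and Mthfd1. Of all genes 12.8% were called, 7.14% lower and 5.61% higher (with DESeq2 52.7% of the calls were higher), and the median was log2 -0.083 over the 8 genes and 0.00039 over all genes. Shmt1 had 33.6, 35.0 and 38.2 CPM in TMG_E2 libraries, against 41.3, 44.3 and 46.6 CPM in E2 libraries. Every TMG_E2 library was below every E2 library, where 28.5% of all genes had groups that did not overlap, a fall of 1.24-fold (log2 -0.31 ± 0.060, edgeR adjusted p = 0.00314). Mthfd1 had 234, 222 and 246 CPM in TMG_E2 libraries, against 276, 259.5 and 274 CPM in E2 libraries, also without overlap and 1.15-fold lower (log2 -0.21 ± 0.042, edgeR adjusted p = 0.00495). Both kept an adjusted p under 0.05 in all 14 alternatives, with a highest value of 0.0201 for Shmt1 and 0.0283 for Mthfd1.

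Mthfd1l was close to the threshold in the same comparison. It had 144, 150.03 and 137 CPM in TMG_E2 libraries, against 157, 157 and 153 CPM in E2 libraries (log2 -0.12 ± 0.038, edgeR adjusted p = 0.0542). With the replicate number as a block its edgeR adjusted p was 0.0205. Shmt2 was at log2 -0.093 ± 0.059 and its groups overlapped, as TMG_E2 libraries had 611, 728 and 737 CPM against 696, 748 and 769 CPM in E2 libraries; without TMG_E2 replicate 1 the estimate was -0.0046. Mthfd2 was at -0.073 ± 0.039, Psat1 at -0.057 ± 0.034, Psph at 0.013 ± 0.054 and Tyms at 0.0013 ± 0.044, with edgeR adjusted p from 0.245 to 0.992.

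**Figure D4:**
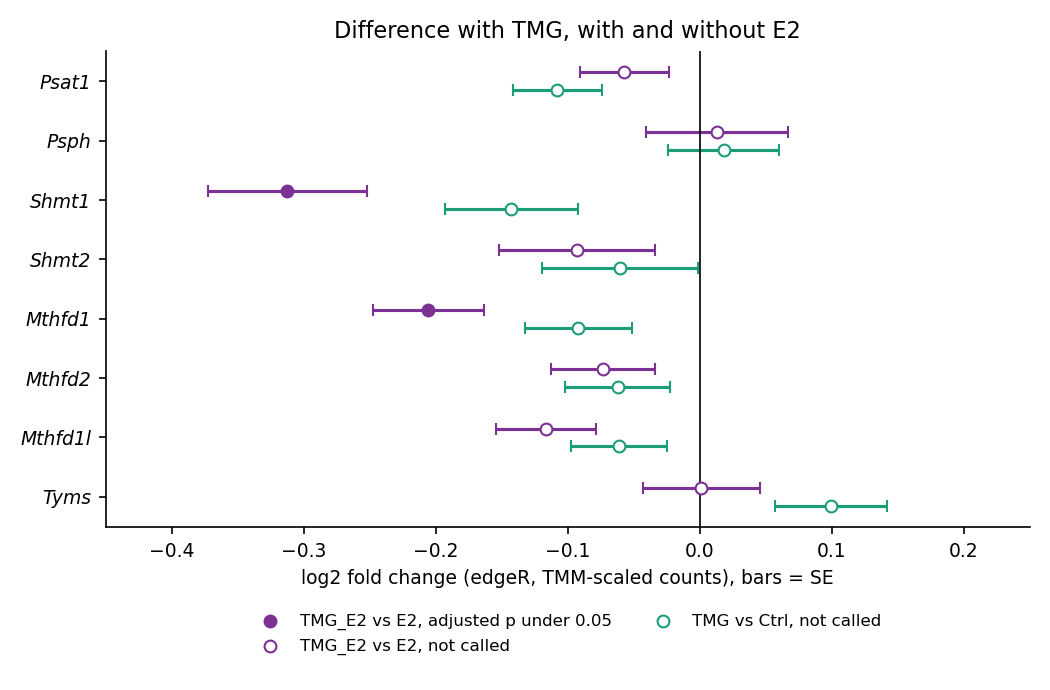
Log2 fold change (horizontal axis) with SE for the 8 tested genes, in TMG_E2 against E2 libraries and in TMG against Ctrl libraries. Filled points have an adjusted p under 0.05, and these are Shmt1 and Mthfd1 in the contrast with E2 present.

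Whether the TMG difference depended on E2 was tested as an interaction, the TMG difference with E2 minus that without it. None of the 8 genes passed the edgeR test, where 0.931% of all genes did, 0.266% higher and 0.665% lower; 1 gene, Shmt1, had an unadjusted p under 0.05, as 914 of the 8273 tested genes did, and DESeq2 and limma on log2(TPM + 1) called 0. Shmt1 had an interaction of log2 -0.17 ± 0.079 (edgeR adjusted p = 0.437) and Mthfd1 of -0.11 ± 0.059 (adjusted p = 0.493). The calls of these genes with E2 present are therefore not shown to be specific to that setting. The other 6 interactions lay between log2 -0.098 (Tyms) and 0.051 (Psat1).

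Related genes were taken from 7 lists with 67 distinct symbols, all in the files, of which 45 passed the expression filter. With E2 against Ctrl 16 of the 45 rose and 25 fell, where 41.5% of all genes rose and 41.2% fell. With TMG_E2 against TMG 16 rose and 24 fell, where 40.9% of all genes rose and 41.8% fell. Mtfmt and Sfxn3 passed the filter through libraries without E2 alone, so they had to be lower with E2 and do not support the counts of their lists. Of 16 other genes of the folate cycle and folate transport 6 were tested, and 5 fell and 1 rose (median log2 -1.06, against -0.00076 over all genes). Slc19a1, the reduced folate carrier of the cell surface, averaged 18.3 ± 2.11 CPM in E2 and 87.6 ± 3.16 CPM in Ctrl cells (log2 -2.25 ± 0.075, edgeR adjusted p = 1.53e-14). Fpgs, which adds glutamates that hold folate in the cell, averaged 23.9 ± 1.33 CPM in E2 and 76.1 ± 3.16 CPM in Ctrl cells. The mitochondrial folate carrier Slc25a32 averaged 11.2 ± 0.358 CPM in E2 and 34.4 ± 0.149 CPM in Ctrl cells, and both fell.

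Of the 4 glycine cleavage genes 2 were tested and both fell, Gcsh at log2 -1.30 ± 0.059 and Dld at -0.25 ± 0.035. Gldc, which starts that reaction, was at 0 in all libraries. Among 7 tested serine and glycine carriers and converting enzymes 5 fell and 2 rose (median log2 -0.38). Slc6a9, a plasma membrane glycine transporter, averaged 162 ± 5.28 CPM in E2 and 24.9 ± 1.13 CPM in Ctrl cells (log2 2.70 ± 0.057, edgeR adjusted p = 3.47e-17), and glycine is a substrate of heme synthesis. Sfxn3, a mitochondrial serine transporter, averaged 2.42 ± 0.121 CPM in E2 and 14.1 ± 1.52 CPM in Ctrl cells. Sfxn1, the related serine importer of mitochondria, averaged 116 ± 5.93 CPM in E2 and 175 ± 2.16 CPM in Ctrl cells (log2 -0.60 ± 0.041).

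The methionine cycle list ran the other way, with 5 of 7 tested genes higher and 1 lower with E2 (median log2 0.37). Ahcyl1 rose (log2 0.82 ± 0.042), while Mat2a, which makes S-adenosylmethionine, averaged 258 ± 8.73 CPM in E2 and 507 ± 11.1 CPM in Ctrl cells (log2 -0.98 ± 0.040). Mtr, methionine synthase, was at log2 -0.074 ± 0.057 (edgeR adjusted p = 0.239). Of 9 genes of thymidylate and deoxynucleotide supply 7 fell and 2 rose (median log2 -0.43). Dctpp1, a dCTP pyrophosphatase, was at -1.25 ± 0.063 and Dck, deoxycytidine kinase, at 1.42 ± 0.042.

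ATF4 and MYC are transcription factors known to drive serine and folate genes. Atf4 was at log2 0.075 ± 0.082 in E2 against Ctrl libraries (337 ± 21.8 CPM in E2, 320.1 ± 32.9 CPM in Ctrl cells, edgeR adjusted p = 0.408). In TMG_E2 against TMG libraries Atf4 was called higher, at log2 0.18 ± 0.082 (edgeR adjusted p = 0.0487). Its list, 11 genes tested including Atf4, had 5 higher, 3 lower and 3 not called in E2 against Ctrl libraries. There Asns was at log2 -0.017 ± 0.036 (edgeR adjusted p = 0.671) and Ddit3 at 2.16 ± 0.15. In TMG_E2 against TMG libraries the list had 6 higher, 2 lower and 3 not called. Myc averaged 88.8 ± 7.61 CPM in E2 and 319 ± 41.6 CPM in Ctrl cells (log2 -1.85 ± 0.083, edgeR adjusted p = 8.92e-13). Of the 5 tested genes of its list 3 fell and 2 rose (median log2 -0.38). Mxd1 and Mxi1, which bind MAX in place of MYC, rose by log2 1.52 ± 0.10 and 1.08 ± 0.071. These values are given beside those of the enzymes, and a link between them was not tested.

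**Figure D5:**
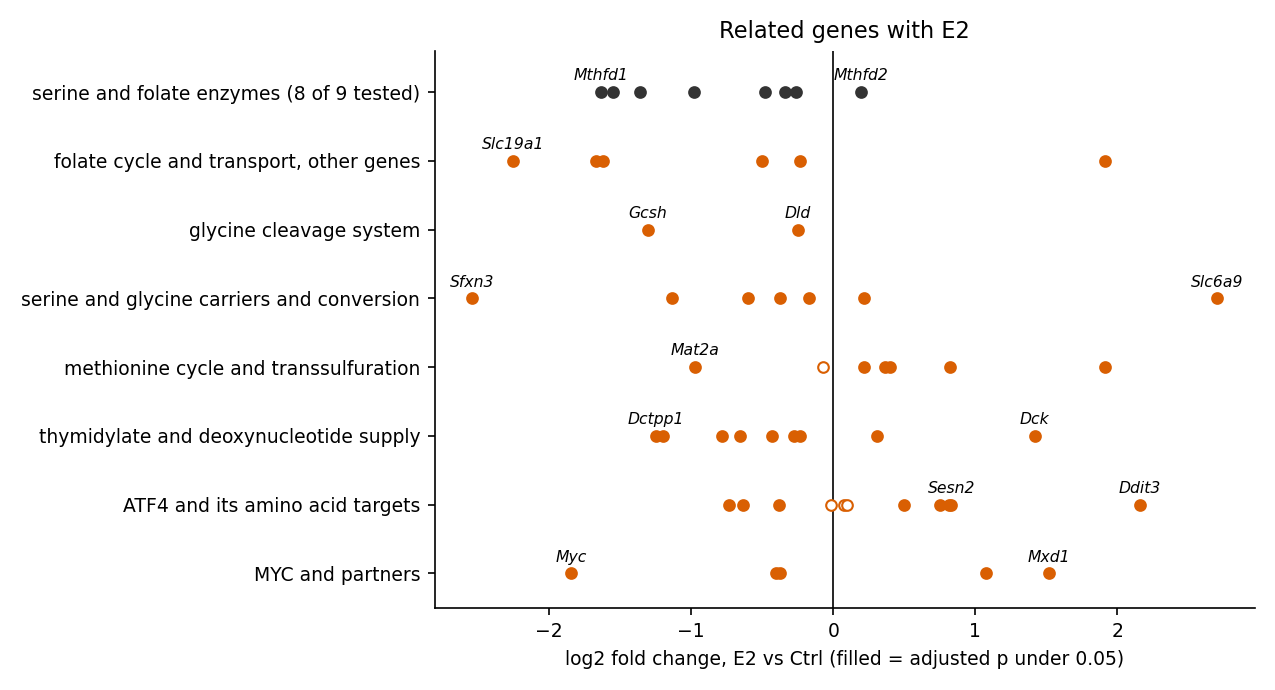
Log2 fold change in E2 against Ctrl libraries (horizontal axis) of the 8 tested enzymes and of the tested genes of 7 related lists; each point is a gene and filled points have an adjusted p under 0.05. Slc19a1 and Sfxn3 lie at the lower end and Slc6a9 at the upper end. Sfxn3 passed the filter through libraries without E2 alone.

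With TMG against Ctrl 2 of the 45 related genes fell and 0 rose, where 2.14% of all genes fell and 3.01% rose, and 6 had an unadjusted p under 0.05, where 18.9% of all genes did. Mtrr, which reactivates methionine synthase, averaged 24.6 ± 1.3 CPM in TMG and 29.2 ± 0.516 CPM in Ctrl cells (log2 -0.24 ± 0.054, edgeR adjusted p = 0.0167). Slc3a2, the heavy chain of amino acid transporters, was at -0.24 ± 0.055 (edgeR adjusted p = 0.0167). Both calls ended when single libraries were left out, with adjusted p up to 0.0753 for Mtrr (without TMG replicate 3, and also lost without Ctrl replicate 1 or 2) and 0.0846 for Slc3a2 (without TMG replicate 1, and also lost without TMG replicate 2 or Ctrl replicate 2 or 3). With E2 present, 5 of the 45 fell with TMG and 0 rose, where 7.14% of all genes fell and 5.61% rose. Slc19a1 averaged 13.5 ± 1.53 CPM in TMG_E2 and 18.3 ± 2.11 CPM in E2 cells (log2 -0.46 ± 0.096, edgeR adjusted p = 0.00520), and Dctpp1 averaged 20.6 ± 2.02 CPM in TMG_E2 and 25.7 ± 0.544 CPM in E2 cells (log2 -0.33 ± 0.072, adjusted p = 0.00753). These 2 were called in every alternative, with adjusted p up to 0.0314 for Slc19a1 and 0.0345 for Dctpp1. Fpgs (log2 -0.28 ± 0.077, edgeR adjusted p = 0.0257), Mtrr (-0.18 ± 0.052, adjusted p = 0.0269) and Dut (-0.15 ± 0.048, adjusted p = 0.0481) also fell. Their calls were lost in 5, 7 and 9 of 14 alternatives. For Dut these included RLE, filterByExpr, DESeq2 and only the groups compared. The edgeR adjusted p of the 3 genes reached 0.123, 0.128 and 0.220 when TMG_E2 replicate 1, E2 replicate 2 and TMG_E2 replicate 2 were left out. For Dut the difference was -0.085 without that library.

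The interaction was called for 1 of the 45, Slc3a2, at log2 0.36 ± 0.078 (edgeR adjusted p = 0.0398). It averaged 373 ± 31.3 CPM in TMG_E2 against 343 ± 8.70 CPM in E2 cells, and 377 ± 26.2 CPM in TMG against 447 ± 13.1 CPM in Ctrl cells. This call ended in 9 of 19 alternatives, all of them fits that left out 1 library: those without Ctrl replicate 1, 2 or 3, TMG replicate 1 or 2, or E2 replicate 1, 2 or 3, or TMG_E2 replicate 2, with an adjusted p up to 0.112 (without TMG replicate 1).

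The genes with large E2 differences named above had these values in the other pair of groups. In TMG_E2 against TMG libraries Slc19a1 was at log2 -2.65 ± 0.080, Slc6a9 at 2.60 ± 0.058, Myc at -1.95 ± 0.085 and Ddit3 at 2.25 ± 0.15. Each of these had an edgeR adjusted p under 0.05. Sfxn3 was at -2.43 ± 0.13, but it passed the filter through libraries without E2 alone and had to be lower.

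Genes with the pattern most like each enzyme were found from the root mean square difference of log2 CPM, each gene centred on its mean over the 12 libraries. Over all tested genes 94.8% of the variance lay on the first principal component, which separated libraries with E2 from those without. A near pattern therefore mostly means a similar E2 difference. For Mthfd1 the nearest of 8272 genes was Gart at 0.0375, followed by Cluh and Rcc1. Shmt1 was nearest to Phb (0.0556), Cad and Dctpp1, and Psph to Polr2h (0.0570), Coro2a and Myo5a. Mthfd1l was nearest to C1qbp (0.0502), Ipo5 and Ap1g2, Shmt2 to Timm13 (0.0302), Ubtf and Rps2, and Psat1 to Actr3 (0.0226), Ddx3x and Trim37. Tyms was nearest to Cdc26 (0.0308), Wdr61 and Rad51d, and Mthfd2 to Atg3 (0.0406), Vdac1 and Angel2. No enzyme had another of the 8 among its 3 nearest genes, and how often this holds for other sets of genes was not computed. The closest such pair by rank was Mthfd1 and Psph, at a difference of 0.131, where Psph ranked 82 from Mthfd1, while for Mthfd2 the nearest of the 8 was Shmt2 at rank 4105.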

How the data were processed

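RNA of 12 libraries was sequenced as stranded poly(A) read pairs, per the labels' protocols. Per the series design text and the submitters' processing notes, the authors checked reads with FastQC 0.11.2 and used RSEM 1.2.22 (Bowtie2 is also named) on GRCm38. The deposited expected counts are RSEM estimates and share multi-gene reads out by probability. The deposited TPM values are scaled by the authors for length and depth. No source used here gives the strand setting.

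Expected counts were rounded and fitted with edgeR 4.0.16 in R 4.3.3 (quasi-likelihood, a mean per group over all 12 libraries, TMM). The filter kept genes above 10 CPM in 2 or more libraries, as in the series design text (8273 of 32699), with Benjamini-Hochberg adjustment over these and a threshold of 0.05. CPM in the text is scaled by TMM, except for marker sums, limits and filter values, which use library size. The SE comes from the F statistic. TPM was not used for the main test. The fits were also run on simulated data, with independent libraries and a small share of genes changed. That setting is unlike the E2 contrasts, so it does not bear on the calls there. DESeq2 1.42.0 and limma 3.58.1 were alternatives. Near copies were found with blastn 2.17.0. Positions and promoter sequences come from RefSeq on GRCm38.p6, and all 9 symbols matched.

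The genes and the lists were chosen with earlier results of these data known. The text names all 9 genes, up to the 2 called genes of largest change per list and comparison, and the 3 nearest genes of each; Fpgs and Slc25a32 with E2, Sfxn1, Mtr, Atf4, Asns, Mxi1, Gldc, Mtfmt and Ahcyl1 were named outside that rule after their values were seen, and some genes that it names are not reported here. Counts of every pair of replicates differed beyond sampling noise. The chi-square for each degree of freedom was 6.78 to 10.2 between TMG_E2 libraries and 2.17 to 3.44 within the other groups. The main fit shares its estimate of the spread over all groups and gives TMG_E2 no wider spread of its own. Libraries with the same number deviated together, with correlations over 0.1, between TMG_E2 and TMG (0.525, 0.149 and 0.412), between TMG_E2 and E2 (0.285, 0.182 and 0.201) and between E2 and Ctrl (0.108, 0.278 and 0.112). Between TMG and Ctrl these correlations were 0.0876, 0.0295 and 0.188, positive but not all over 0.1. The pairing is read from the data and not the labels, and the main fit and the ratio tests do not use it. The main fit holds no block, since the series design text states none. A fit with the replicate number as a block is among the alternatives.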

Additional observations from a re-analysis of the deposited data

How the results depend on the processing

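Of 14 alternatives per comparison (19 for the interaction), the 8 genes were called with E2 vs Ctrl and with TMG_E2 vs TMG in all but those that touched Mthfd2: 7 were called with limma on log2(TPM + 1), chosen after seeing the data, and 7 in TMG_E2 vs TMG with library size alone. Mthfd2 changed sign on the TPM scale (-0.00063 for E2 vs Ctrl and -0.0010 for TMG_E2 vs TMG). For TMG vs Ctrl the count of the 8 genes called was 1 (Psat1) with library size alone, DESeq2 or limma. It was 2 (Psat1 and Shmt1) with only the groups compared and 1 (Shmt1, edgeR adjusted p = 0.0191) with the replicate block. In that contrast libraries with the same number correlated at 0.0876, 0.0295 and 0.188, all positive but not all over 0.1. For TMG_E2 vs E2 the count was 2 to 3, the third being Mthfd1l (replicate block, library size alone or without TMG_E2 replicate 2). For the interaction it was 0 throughout. The block changed no other call of the 8 genes.

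Counts over all genes moved more. TMG vs Ctrl had 426 calls, 749 with only the groups compared, 675 with the replicate block and 196 to 257 with 1 library left out. TMG_E2 vs E2 had 1055, 1454 with the replicate block, 472 with only the groups compared and 656 to 1160 with 1 library left out. The interaction had 77, 178 with no filter, 48 with filterByExpr, 171 with the replicate block, 31 with limma and 18 to 161 with 1 library left out. The share of calls that were higher was 58.5% with TMM for TMG vs Ctrl, 43.6% with library size alone and 35.5% with limma on log2(TPM + 1). It was 44.0%, 31.3% and 21.7% for TMG_E2 vs E2, where higher calls outnumbered lower ones at 51.6% with RLE, 52.7% with DESeq2, 51.8% without TMG_E2 replicate 1 and 51.1% without TMG_E2 replicate 2, and 50.2%, 42.1% and 34.5% for E2 vs Ctrl, where the median gene moved to log2 -0.19 with limma.

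Estimates near 0 that were never called changed sign. Psph was at -0.029 for TMG vs Ctrl with limma and -0.023 to 0.050 with 1 library left out. For TMG_E2 vs E2 Psph was at -0.0041 with library size alone, -0.022 with limma and -0.0035 to 0.039 with 1 library left out, and Tyms at -0.016 with library size alone, -0.0059 with only the groups compared, -0.066 with limma and -0.039 to 0.038 with 1 left out. For the interaction Psph was at 0.0065 with RLE, 0.0065 with DESeq2, 0.0064 with limma and -0.042 to 0.042 with 1 left out; Mthfd2 was at 0.00051 with RLE, 0.00026 with DESeq2 and -0.047 to 0.032 with 1 left out, and Shmt2 at -0.081 to 0.059 with 1 left out. The cause was not tested.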
